A study of Mus musculus with 48 samples.

Results

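A set of 8 sarcomere genes, known as developmental isoforms or as genes induced by mechanical stress, was followed across genotype, tumor and time of day in mouse tibialis anterior (TA) muscle. The members were chosen by name: Actc1, Myh3, Myh8, Ankrd1, Ankrd2, Csrp3, Xirp1 and Xirp2, which are 8 of the 56748 genes in the deposited expression table. All 8 passed the filter on low counts and are among the 15637 genes tested. The list was drawn up with earlier results of these data known, and the sources do not say which values weighed in that choice, so the tests below are not independent of it.

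RNA was sequenced from the TA of 48 male mice of 39 to 55 weeks by the labels, 1 library per mouse, in 24 groups of 2 mice. The study's methods give the same ages, whereas its limitations section describes the RNA-sequenced mice as younger, and this was not settled here. FoxP1SkmKO mice were homozygous FoxP1fl/fl animals with ACTA1-Cre, a transgene in which the skeletal actin promoter drives the recombinase, so that the deletion is aimed at muscle fibers and not at the other cells of the tissue. The mice called WT were FoxP1fl/fl without Cre according to the series' design text and C57BL/6J according to the sample labels, and this was not settled here. KPC mice received murine pancreatic cancer (KPC) cells in the pancreas and control mice received PBS by the same surgery, and muscles were taken in constant darkness at 6 circadian times (CT), from CT18 to CT38 in steps of 4 h. Each genotype and condition therefore had 12 mice, 2 at each time. Total counts per library ran from 14480867 to 20787784, with a median of 16602092. The levels of myofiber marker genes (Acta1, Ckm, Myh4, Myh1, Pvalb and Tnnt3) summed to between 43119 and 61247 FPKM (the fragment count scaled by transcript length and by library depth), against 0.866 to 2.16 FPKM for 4 cardiomyocyte markers. Foxp1, the targeted gene, did not separate the genotypes: its median was 0.615 FPKM in WT control, 0.636 in WT KPC, 0.585 in FoxP1SkmKO control and 0.531 in FoxP1SkmKO KPC mice (adjusted p = 0.459 between genotypes in control and 0.246 in KPC mice, edgeR). Gene-level counts over all exons and all cells of the muscle do not check a deletion restricted to fibers, so genotype was taken from the labels. The lowest median correlations with the other libraries belonged to WT control CT26 replicate 1 (0.972) and FoxP1SkmKO KPC CT30 replicate 2 (0.978), and results that rest on them are given with and without them.

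A sarcomere is built from thin filaments of actin and thick filaments of myosin, anchored at Z-discs. Actc1 encodes cardiac alpha-actin, the sarcomeric actin of the heart, which developing skeletal muscle also uses before skeletal alpha-actin (Acta1) replaces it. Myh3 and Myh8 encode the embryonic and the perinatal myosin heavy chain, which appear again in regenerating fibers. Ankrd1 (CARP) and Ankrd2 (ARPP) belong with Ankrd23 to the muscle ankyrin repeat proteins, which bind titin and also enter the nucleus, and which are known to be induced by stretch, exercise or denervation. Csrp3 (muscle LIM protein) is a Z-disc LIM protein typical of heart and slow fibers, and Xirp1 (Xin) and Xirp2 (Xeplin, also called myomaxin) are actin-binding repeat proteins of cell junctions and of the sarcomere's Z-disc region, where Xin is known to collect at damaged sites.

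The genes lie at separate loci of the mm39 build, and only Myh3 and Myh8 belong to 1 gene cluster, that of skeletal myosin heavy chains on chromosome 11. Actc1 (ENSMUSG00000068614) spans chr2:113877763-113884029 on the minus strand, Myh3 (ENSMUSG00000020908) spans chr11:66969126-66993117 and Myh8 (ENSMUSG00000055775) chr11:67167950-67199460, both on the plus strand. Ankrd1 (ENSMUSG00000024803) lies at chr19:36089361-36097499 on the minus strand and Ankrd2 (ENSMUSG00000025172) at chr19:42024439-42033549 on the plus strand. Csrp3 (ENSMUSG00000030470) lies at chr7:48480146-48497781 and Xirp1 (ENSMUSG00000079243) at chr9:119842821-119852664, both on the minus strand, and Xirp2 (ENSMUSG00000027022) at chr2:67004178-67356959 on the plus strand. Reads of near-identical relatives limit 1 member above all: 21.1% of the 50-base stretches of the longest Myh8 coding transcript also occur in another myosin heavy chain, mostly Myh2, against 4.62% for Myh3 and 0% for the other members against the relatives searched. Of stretches of 150 bases, the read length in the study's methods, 1.58% of Myh8 and 0.293% of Myh3 were shared, mostly with Myh13. Myh4, the fast IIb heavy chain, was among the relatives searched and stood at 8555 times the mean level of Myh8. Its own share of the stretches was not recorded, so the values of Myh8 are uncertain. The gene span of Xirp1 lies inside that of Cx3cr1, a macrophage receptor gene on the same strand, which never exceeded 0.384 FPKM. Long noncoding RNA genes on the opposite strand of Actc1, Ankrd1 and Xirp2 never exceeded 0.467 FPKM, and the labels do not settle whether the libraries kept strand.

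RefSeq promoter windows were available for 7 of the 8 members, and 250 bases upstream of the start are shown for the members whose levels varied most between mice, so that the elements known from muscle promoters can be compared. Sequences are from RefSeq's GRCm38.p6 table and are placed on GRCm39 (mm39) by an exact, single match. Capitals mark the motif matches that were found on either strand: a CArG box (the SRF site), the M-CAT element CATTCC (the TEAD site, written GGAATG where it lies on the other strand), E-boxes (CANNTG, sites of the MyoD family) and the TATA box TATAAA, all read from 5′ to 3′.
Actc1, chr2:113883357-113883606, minus strand: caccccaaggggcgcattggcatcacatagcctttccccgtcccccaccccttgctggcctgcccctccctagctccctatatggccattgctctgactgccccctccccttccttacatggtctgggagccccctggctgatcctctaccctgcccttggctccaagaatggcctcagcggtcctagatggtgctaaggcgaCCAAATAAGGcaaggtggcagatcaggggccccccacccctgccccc
Ankrd1, chr19:36097245-36097494, minus strand: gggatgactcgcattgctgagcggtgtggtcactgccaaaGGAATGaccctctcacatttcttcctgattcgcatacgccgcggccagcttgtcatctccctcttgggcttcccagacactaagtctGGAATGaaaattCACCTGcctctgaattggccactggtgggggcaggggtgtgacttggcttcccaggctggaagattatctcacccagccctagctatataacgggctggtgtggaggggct
Ankrd2, chr19:42024216-42024465, plus strand: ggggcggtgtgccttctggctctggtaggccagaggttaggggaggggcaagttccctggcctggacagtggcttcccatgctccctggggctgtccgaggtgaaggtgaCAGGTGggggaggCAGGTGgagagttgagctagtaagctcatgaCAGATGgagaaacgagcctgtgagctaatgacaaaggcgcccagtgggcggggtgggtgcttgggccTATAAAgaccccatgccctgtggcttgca
Csrp3 (start 2), chr7:48497800-48498049, minus strand: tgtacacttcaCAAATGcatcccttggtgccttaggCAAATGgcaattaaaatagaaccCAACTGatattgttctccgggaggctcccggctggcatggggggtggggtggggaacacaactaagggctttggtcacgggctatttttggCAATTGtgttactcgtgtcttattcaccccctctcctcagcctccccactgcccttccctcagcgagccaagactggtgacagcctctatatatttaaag
The 4 windows shared no arrangement. Actc1 held a CArG box 47 to 38 bases upstream of the start, a motif found in 1.47% of 32851 windows of the same length. Ankrd1 held a pair of M-CAT elements, 210 to 205 and 123 to 118 bases upstream, and 12.6% of all windows held at least 1. Ankrd2 held 3 E-boxes and a TATA box 29 to 24 bases upstream, and Csrp3 held 4 E-boxes, where 66.2% of all windows held an E-box and 12.4% a TATA box. Among the windows not printed, Myh3 held a TATA box and an E-box, Myh8 a MEF2 box overlapping a TATA box on the other strand, and Xirp2 a MEF2 box, which 2.92% of all windows held. The forkhead core TGTTTAC, the motif of the family to which FoxP1 belongs, was in none of the 8 windows of the members and in 3.17% of all windows. No match says only that these letters are not in these windows.

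The 8 genes covered a wide range of levels. Actc1 was highest, at 238 FPKM on average over the 48 libraries (43.5 to 560), followed by Xirp2 at 155 (122 to 190). The 2 were not cleanly ordered, since Actc1 exceeded Xirp2 in 33 of 48 libraries. Ankrd2 averaged 21.6 FPKM (8.42 to 67.0) and Xirp1 20.8 (12.6 to 46.5), and this neighboring pair did not differ beyond its spread, with Ankrd2 above Xirp1 in 19 of 48 libraries. Csrp3 averaged 3.54 FPKM (0.840 to 18.9) and Ankrd1 2.52 (0.978 to 9.80), again overlapping, with Csrp3 above in 33 libraries. The developmental myosins were at the bottom, Myh8 at 1.11 FPKM (0.739 to 1.98) and Myh3 at 0.617 (0.280 to 1.39). Myh3 was counted with only 30 to 156 reads per library, and the lowest counts of Csrp3 and Ankrd1 were 36 and 54 reads, so these members carry the largest counting error.

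Set against their adult counterparts the developmental isoforms were a small part of the sarcomere's messenger RNA. Actc1 made up 1.17% ± 0.446 (SD, n = 12) of the summed FPKM of Acta1 and Actc1 in WT control mice, 0.560% ± 0.253 in WT KPC, 1.37% ± 0.520 in FoxP1SkmKO control and 0.832% ± 0.403 in FoxP1SkmKO KPC mice. Myh3 and Myh8 together made up between 0.014% and 0.016% on average of the summed FPKM of 6 skeletal myosin heavy chains in the same groups.

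**Figure D1:**
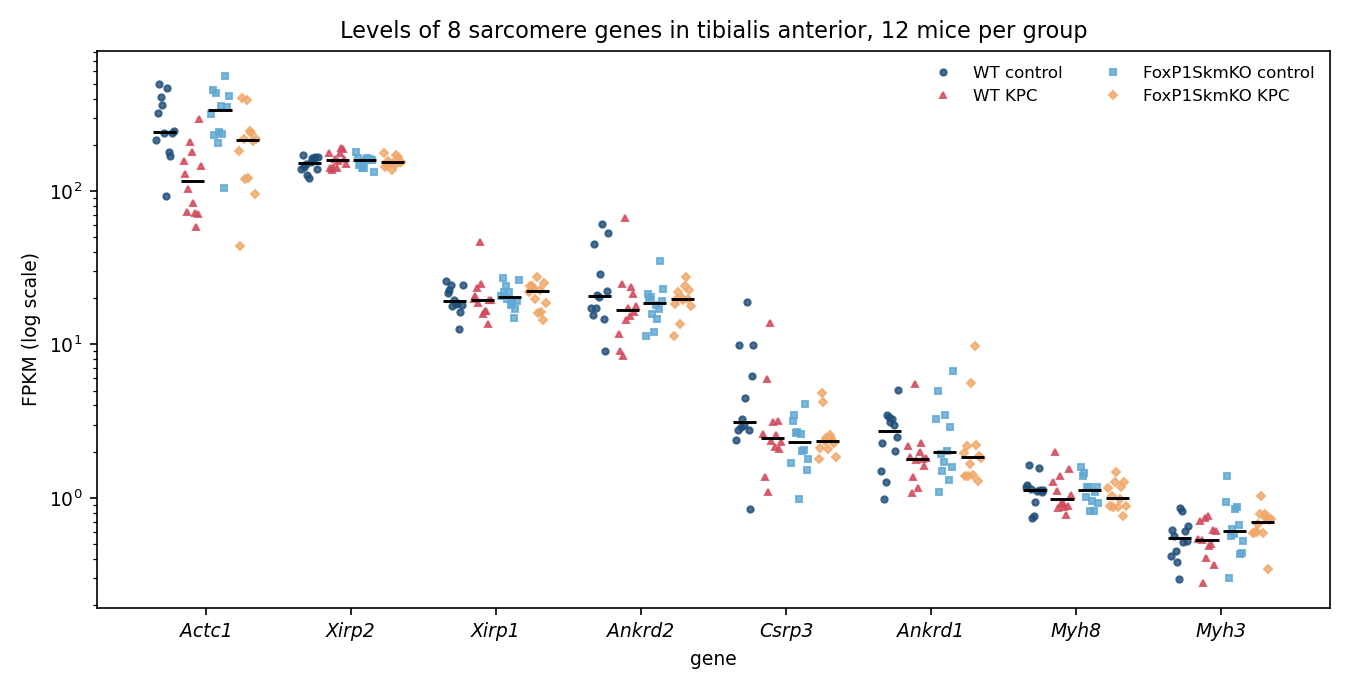
Level of each of the 8 genes in all 48 libraries, in FPKM on a log axis, split by genotype and condition, with 1 point per mouse (12 per group) and a bar at the group median. The median of Actc1 is lower in KPC than in control mice (116 against 242 FPKM in WT, 214 against 335 in FoxP1SkmKO), Csrp3 and Ankrd2 carry single high mice in the WT groups, and Xirp2 stays between 122 and 190 FPKM throughout.

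The members differed greatly in how far apart the mice of a group were. Csrp3, Actc1, Ankrd1 and Ankrd2 were among the most variable genes of the muscle: their within-group SD on the log2 CPM scale was 0.77, 0.73, 0.71 and 0.58, at percentiles 99.5, 99.4, 99.3 and 98.4 of the SDs of 12632 genes. Xirp2, with an SD of 0.11, lay at percentile 21.1, and Xirp1 (0.23), Myh8 (0.26) and Myh3 (0.36) lay between. The largest gap between the 2 mice of a group was 6.94-fold for Ankrd1 (FoxP1SkmKO KPC CT30), 5.89-fold for Csrp3 and 4.67-fold for Ankrd2 (both WT KPC CT26) and 5.38-fold for Actc1 (FoxP1SkmKO control CT34). A gap of more than 2-fold was seen in 7 of 24 groups for Actc1 and for Csrp3 and in 6 for Ankrd1 and Ankrd2, but in none for Myh8, Xirp1 and Xirp2. With 2 mice a group, this spread set how small a difference could be called in these 4 genes.

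The first comparison asked what the tumor did to these genes in WT muscle. Cardiac alpha-actin, Actc1, fell and was the only member called. In WT control mice it ranged from 92.8 to 498 FPKM with a median of 242, and in WT KPC mice from 58.3 to 296 with a median of 116. In 11 of 12 WT KPC mice the level was below the WT control median, and 5 of 12 WT control mice were above the highest WT KPC mouse. Averaged over the 6 times, the log2 fold change was -1.22 (SE 0.25, 95% interval -1.73 to -0.71, adjusted p = 0.00946, edgeR quasi-likelihood test with Benjamini-Hochberg adjustment over all genes), which is 0.429 of the control level. It was called with any 1 of the 48 libraries left out (log2 fold change -1.35 to -0.96). Leaving out all CT22 libraries moved it to -0.99 with adjusted p = 0.0588, so that the call was lost. Of all genes tested, 1.79% were called in this comparison and 0.627% were called lower, and the median log2 fold change was -0.19 over the members and 0.00 over all genes.

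The fall of Actc1 was seen at most times of day. At CT22 the WT control mice had 498 and 409 FPKM and the WT KPC mice 73.4 and 103, the widest separation of the 6 times (log2 fold change -2.37, SE 0.64, adjusted p = 0.566 within that single time). At CT34 the values were 179 and 170 against 58.3 and 70.2, and at CT18 they were 215 and 323 against 156 and 130. Both KPC mice lay below both control mice at 5 of the 6 times, all but CT38, where 296 and 146 overlapped 239 and 244. A separation at 5 or more of 6 times in this direction was seen for 0.422% of all genes. No single time passed the threshold after adjustment.

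**Figure D2:**
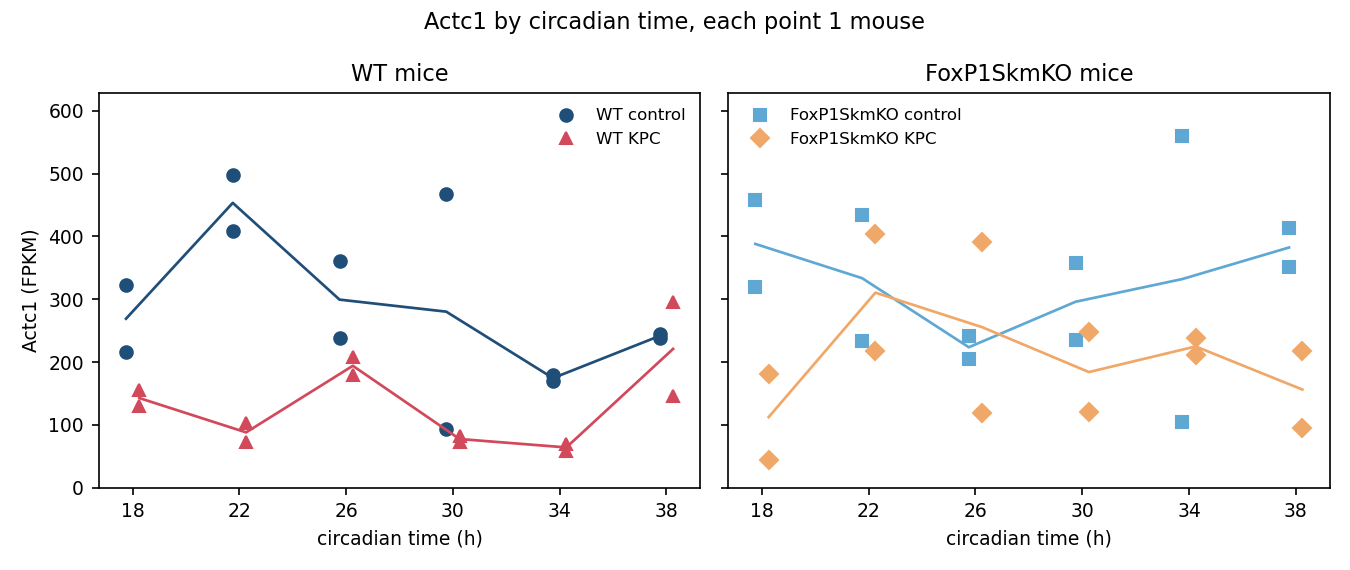
Actc1 level in FPKM at each circadian time (hours), with 1 point per mouse, 2 mice per genotype, condition and time, and lines through the means. The WT KPC mice lie below the WT control mice at all times but CT38, while in FoxP1SkmKO mice the 2 conditions overlap at 4 of 6 times.

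In FoxP1SkmKO muscle, Actc1 ranged from 104 to 560 FPKM (median 335) in control and from 43.5 to 404 (median 214) in KPC mice. Here 10 of 12 KPC mice were below the control median, but the conditions did not overlap at only 2 of 6 times, which held for 30.5% of all genes. The log2 fold change was -0.71 (SE 0.25, 95% interval -1.21 to -0.20) and was not called (adjusted p = 0.195), and no other member was called in this comparison, in which 0.428% of all genes were. The difference between the genotypes was tested directly and was not resolved: the tumor's effect in WT minus that in FoxP1SkmKO mice was -0.52 for Actc1 (SE 0.35, 95% interval -1.23 to 0.20, adjusted p = 0.842). Of the 15637 genes that passed the filter, none was called for this difference by edgeR or DESeq2 (0%), while 1020 had an unadjusted p under 0.05 with edgeR. Without a filter edgeR called 104 genes.

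Other markers moved with the tumor beside Actc1. Fibroblast markers (Pdgfra, Dcn, Col1a1 and Col3a1) summed to 22.9 to 75.4 FPKM (median 45.5) in WT control and 14.5 to 62.9 (median 28.0) in WT KPC mice, and 2 of the 4 fell, Col1a1 by 0.91 and Col3a1 by 0.71 on the log2 scale. In FoxP1SkmKO mice the sums were 20.9 to 58.7 (median 40.5) and 17.6 to 66.1 (median 23.3). None of the 4 markers was at 0 in all libraries. Across the 48 libraries, after the group means were removed, Actc1 correlated with this sum (r = 0.51, rho = 0.57, r = 0.46 without the 2 libraries farthest out) and with the summed fast-fiber genes (r = 0.62, rho = 0.57, 0.66 without 2). Ankrd1 also correlated with the fibroblast sum (r = 0.54, rho = 0.63, 0.52 without 2). The remaining members had r between -0.18 (Xirp2) and 0.25 (Myh8) with it. The part of these cells in the Actc1 result was not tested, and in bulk muscle fewer cells of a type and less RNA per cell cannot be told apart. Of the 4 cardiomyocyte markers, only Myh6 passed the filter on low counts. Of the sarcomeric actins, Acta1 averaged 23785 ± 2879 FPKM (SD, n = 12) in WT control and 22673 ± 2280 in WT KPC mice and was not called.

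The remaining members were not called in WT muscle. Csrp3 was at -0.55 on the log2 scale (SE 0.27, 95% interval -1.10 to 0.00, adjusted p = 0.327), Ankrd2 at -0.38 (SE 0.20, -0.80 to 0.04, adjusted p = 0.388) and Ankrd1 at -0.36 (SE 0.26, -0.89 to 0.17, adjusted p = 0.55). Decreases of that size lie within these intervals and could not be detected in this number of mice. The intervals of Myh3 (-0.30 to 0.28), Myh8 (-0.22 to 0.18) and Xirp1 (-0.12 to 0.21) were narrower, and that of Xirp2 was narrowest, at 0.00 to 0.18 around a value of 0.09 (adjusted p = 0.298). In FoxP1SkmKO mice every member but Actc1 lay between -0.09 and 0.10 on the log2 scale.

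**Figure D3:**
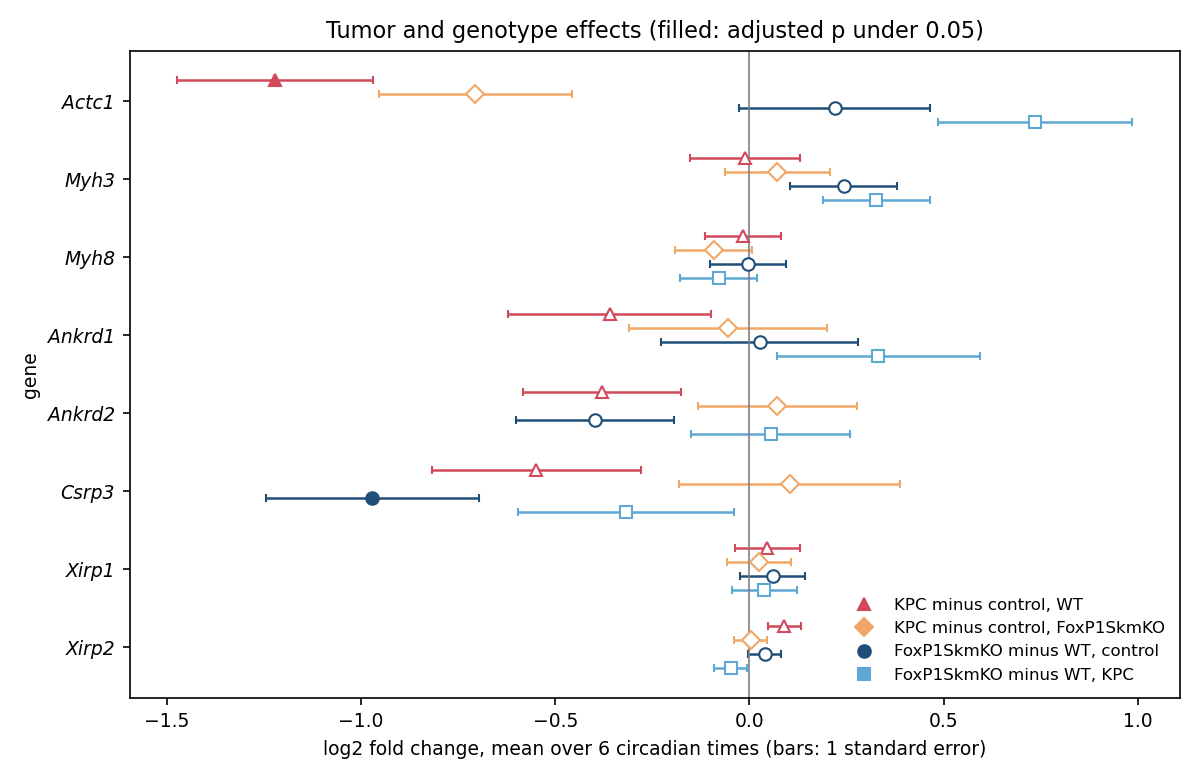
Log2 fold change of each member in 4 averaged comparisons (24 mice each), with bars of 1 standard error, from the edgeR fit to all 48 libraries, with called values marked. Actc1 in the WT tumor comparison (-1.22) and Csrp3 in the genotype comparison of control mice (-0.97) are the called values.

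The second comparison set FoxP1SkmKO against WT muscle, with genotype taken from the labels. In control mice the called member was Csrp3, the LIM protein, which was lower in FoxP1SkmKO muscle. It ranged from 0.840 to 18.9 FPKM (median 3.14) in WT control and from 0.984 to 4.09 (median 2.32) in FoxP1SkmKO control mice, and the groups overlapped. At the upper end, 5 of 12 WT control mice were above every FoxP1SkmKO control mouse, with 18.9 at CT30, 9.97 and 6.20 at CT38, 9.86 at CT22 and 4.44 at CT30. The log2 fold change was -0.97 (SE 0.27, 95% interval -1.53 to -0.41, adjusted p = 0.0403), and 3.44% of all genes were called in this comparison, 1.58% lower. The call was lost in 15 of the 48 fits that left out 1 library (log2 fold change -1.12 to -0.74, adjusted p 0.0153 to 0.174) and without the 2 libraries that stand apart (-0.96, adjusted p = 0.0761). Those 15 libraries were WT control CT18 replicates 1 and 2, CT22 replicate 1, CT26 replicate 1, CT30 replicate 2, CT34 replicate 1 and CT38 replicate 2, and FoxP1SkmKO control CT18 replicate 1, CT22 replicates 1 and 2, CT26 replicate 2, CT30 replicate 2, CT34 replicate 1 and CT38 replicates 1 and 2.

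Ankrd2 also had single high WT mice and was not called. Its level ranged from 9.09 to 61.2 FPKM (median 20.6) in WT control and from 11.3 to 35.1 (median 18.5) in FoxP1SkmKO control mice, with 3 WT mice above every FoxP1SkmKO mouse (log2 fold change -0.40, SE 0.20, adjusted p = 0.314). Myh3 was at 0.24 (SE 0.14, adjusted p = 0.374) and Actc1 at 0.22 (SE 0.25, adjusted p = 0.711). In KPC mice no member was called between the genotypes, against 0.32% of all genes. Actc1 was at 0.73 there (SE 0.25, 95% interval 0.23 to 1.24, adjusted p = 0.224), with a median of 116 FPKM in WT and 214 in FoxP1SkmKO mice, and Csrp3 at -0.32 (SE 0.28, adjusted p = 0.73). Of the 40 pairs of a member and an averaged comparison, 7 had an unadjusted p under 0.05 (edgeR) and 2 were called. Of all 15637 genes, 2370 had such a p for the tumor in WT and 1936 in FoxP1SkmKO mice. The number was 1020 for their difference, and 2682 and 1688 for genotype in control and KPC mice.

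Ankrd23, the remaining muscle ankyrin repeat gene, moved with genotype where Ankrd1 and Ankrd2 were not called. It averaged 55.2 ± 8.29 FPKM (SD, n = 12) in WT control, 57.3 ± 12.9 in WT KPC, 66.0 ± 10.6 in FoxP1SkmKO control and 68.4 ± 9.33 in FoxP1SkmKO KPC mice. It rose in FoxP1SkmKO mice by 0.26 on the log2 scale among controls (SE 0.058, adjusted p = 0.0095) and by 0.27 among KPC mice (adjusted p = 0.0282). These comparisons use different mice. Of the 28 genes of a list of ankyrin repeat and Z-disc proteins, 1 rose and 4 fell between genotypes in control mice: Smpx (-0.23), Pdlim5 (-0.18), Fhl1 (-0.31), a LIM protein, and Mustn1 (-0.42), a gene known from muscle repair, were the ones lower. With the tumor, Des, which encodes the intermediate filament desmin, rose by 0.16 in either genotype and Smpx fell by 0.17 in WT mice, and no other gene of the list was called.

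Of 14 other developmental and cardiac sarcomere isoforms 8 were tested, and none was called in any averaged comparison. None of 9 denervation genes was called either. Of 10 slow-fiber genes Myl3, a slow myosin light chain, fell by 0.50 in FoxP1SkmKO control mice, and of 14 fast-fiber genes Actn3 rose by 0.18 with the tumor in WT mice while Tnni2 and Tnnt3 fell by 0.15 and 0.14 in FoxP1SkmKO control mice. Of 9 myogenic and regeneration genes tested, Cdkn1a, a cell cycle inhibitor, rose by 0.79 in FoxP1SkmKO control mice and Myf6 by 0.25 in FoxP1SkmKO KPC mice. Of 11 SRF and YAP/TEAD target genes tested, Ccn1 rose by 0.26 with the tumor in WT mice, and Fos (1.21), Amotl2 (0.33) and Ccn1 (0.25) rose in FoxP1SkmKO control mice. The neutrophil genes S100a8 and S100a9 rose by 2.83 and 2.06 with the tumor in WT muscle (median 2.44). In FoxP1SkmKO muscle their median was 2.76 and neither was called, nor was their difference between the genotypes. Tnmd (tendon) fell by 1.42, Kdr (endothelium) by 0.27 and Smtn (smooth muscle) by 0.17 with the tumor in WT muscle. Each was the only called gene of 3 markers, whose medians were -0.44 for tendon, -0.09 for endothelium and 0.005 for smooth muscle. The part of these cell types in the member results was not tested.

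Time of day was tested next, as any difference among the 6 times within each of the 4 sets of mice. Of 32 pairs of a member and a set, 6 were called. In WT control mice, where 18.7% of all genes were called, these were Csrp3 (adjusted p = 0.0104) and Ankrd2 (0.0253). In WT KPC mice (11% of all genes) they were Xirp1 (0.000664), Myh8 (0.0307) and Xirp2 (0.0474), in FoxP1SkmKO control mice (6.4%) Myh3 (0.018), and in FoxP1SkmKO KPC mice (5.99%) none. Each of these calls was lost when at least 1 library was left out. Csrp3 in WT control mice was highest at CT30 (4.44 and 18.9 FPKM) and CT38 (6.20 and 9.97) and lowest at CT34 (2.75 and 0.840), and Ankrd2 likewise had 28.8 and 61.2 at CT30 and 14.6 and 9.09 at CT34. Both calls were lost without CT30 replicate 2 (adjusted p = 0.0529 for Csrp3 and 0.0927 for Ankrd2), and that of Ankrd2 also without CT18 replicate 2 (0.0554), CT26 replicate 1 (0.0677) or CT34 replicate 2 (0.107). The call of Myh3, which had 0.934 and 1.39 FPKM at CT18 and 0.300 to 0.875 at the other times, was lost without CT18 replicate 2 (adjusted p = 0.183). Myh8 in WT KPC mice, with 1.28 and 1.98 FPKM at CT18 and 0.775 and 0.878 at CT34, was no longer called without CT18 replicate 2 (0.231), CT34 replicate 1 (0.0737) or CT34 replicate 2 (0.0544), and Xirp2 was no longer called in 40 of the 48 fits (up to 0.211).

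Xirp1, the Xin gene, had its lowest point at the same time in every set of mice. Its mean was lowest at CT34 in all 4 sets: 14.4 FPKM in WT control, 15.1 in WT KPC, 15.9 in FoxP1SkmKO control and 15.4 in FoxP1SkmKO KPC mice. It was highest at CT18 in both control sets, at 23.8 and 24.02 FPKM, 1.65 and 1.51 times the CT34 mean. A 24 h sinusoid was fitted to FPKM within each set and called at an unadjusted p under 0.01. For Xirp1 the F test gave p = 0.0126 in WT control (n = 12, amplitude 4.15 FPKM, peak at CT 19.8) and p = 0.0281 in FoxP1SkmKO control mice (n = 12, amplitude 3.70 FPKM, peak at CT 19.6). Neither was called, nor was any of the 32 pairs, where 4.92%, 4.22%, 4.07% and 2.63% of genes were called in WT control, WT KPC, FoxP1SkmKO control and FoxP1SkmKO KPC mice. Xirp2, the other Xin-repeat gene, peaked in WT KPC mice at CT34 with 190 and 188 FPKM, against 138 and 143 at CT22 (sinusoid p = 0.0397, n = 12, amplitude 18.1 FPKM). The mean of Xirp2 was also highest at CT34 in WT control (165 FPKM) and FoxP1SkmKO KPC mice (168). In FoxP1SkmKO control mice it was highest at CT18 (171).

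The tumor's effect at single times gave 1 call among 96 pairs of a member and a time, where 19 had an unadjusted p under 0.05. Of all 15637 genes, 633 (FoxP1SkmKO mice at CT34) to 3342 (WT mice at CT26) had such a p at a single time. At CT26 Xirp1 was at 46.5 and 24.7 FPKM in the WT KPC mice and at 17.9 and 19.5 in the WT control mice (log2 fold change 0.92, SE 0.20, adjusted p = 0.00414). At this time 7.17% of all genes were called. At the other times in WT mice it was 0.0064% at CT30, 0.0256% at CT38 and 0% at CT18, CT22 and CT34, and in FoxP1SkmKO mice 0.0192% at CT18, 0.0384% at CT26, 0.0064% at CT38 and 0% at the rest. The WT control mice at CT26 include a library that stands apart. The call did not hold without WT KPC CT26 replicate 1 (0.38, adjusted p = 0.382), without WT control CT26 replicate 1 (0.84, adjusted p = 0.165), or without the 2 libraries that stand apart (0.85, adjusted p = 0.128). The same KPC mouse carried the highest Xirp1 and Ankrd2 (67.0 FPKM) of all 48 libraries. Without it, Xirp1 was also no longer called for time of day in WT KPC mice (adjusted p = 0.0886). Whether the tumor's effect itself differed between times was called for none of 16 pairs, against 0.883% of all genes in WT and 0% in FoxP1SkmKO mice.

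**Figure D4:**
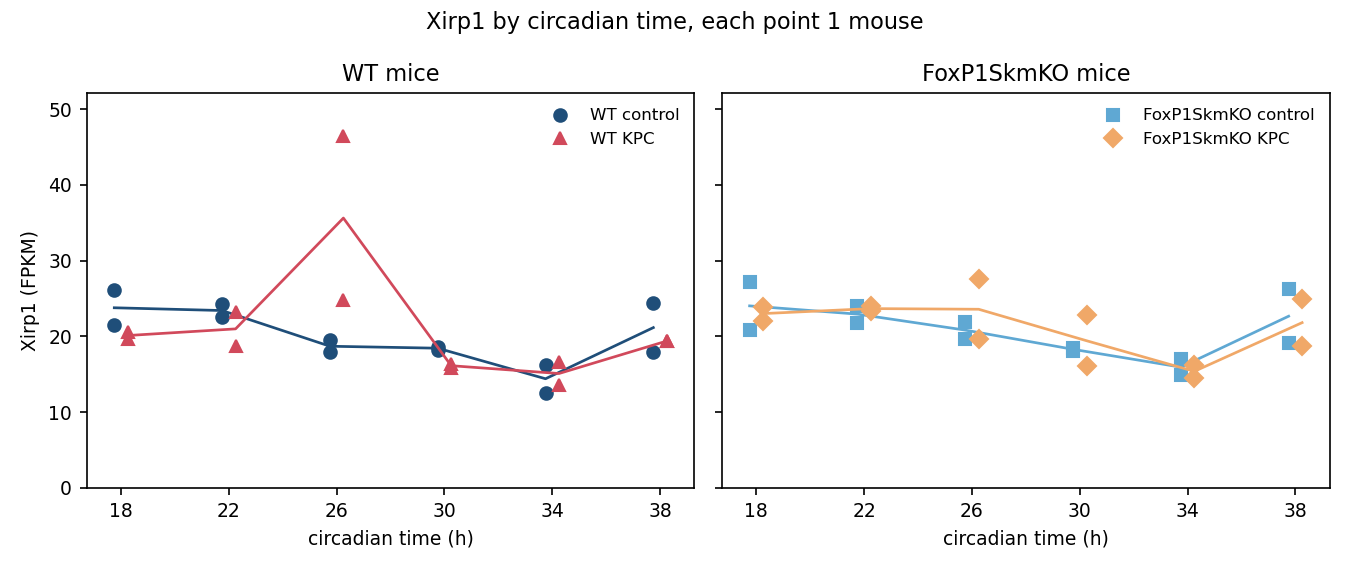
Xirp1 level in FPKM at each circadian time (hours), with 1 point per mouse, 2 mice per genotype, condition and time, and lines through the means. All 4 sets are lowest at CT34, and 1 WT KPC mouse at CT26 (46.5 FPKM) stands far above the rest.

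Some pairs of members were high in the same mice. After the mean of each of the 24 groups was removed, the 28 pairs of members had a median r of 0.26 over the 48 libraries (-0.09 to 0.90), given as a description, since all values of a library share its depth and tissue composition. Ankrd2 and Csrp3 moved most closely, with r = 0.90 (rho = 0.85, and 0.87 without the 2 libraries farthest out). They shared 4 of their 5 highest libraries: WT KPC CT26 replicate 1 (67.0 and 13.8 FPKM of Ankrd2 and Csrp3), WT control CT30 replicate 2 (61.2 and 18.9), CT38 replicate 2 (53.2 and 9.97) and CT22 replicate 1 (44.7 and 9.86). All 4 are WT mice. Within each set of mice the correlation was taken on log2 CPM with the differences between times left in, unlike the 0.90. It was 0.96 in WT control mice (rho = 0.97, 0.93 without the 2 libraries farthest out) and 0.93 in WT KPC mice (rho = 0.78, 0.76 without 2). In FoxP1SkmKO control mice it was 0.69 (rho = 0.58, 0.55 without 2). In FoxP1SkmKO KPC mice it was 0.37 (rho = 0.64, 0.17 without 2), and both genes had their narrowest ranges there. With the group means removed, the other pairs above 0.5 were Ankrd1 with Xirp1 (r = 0.68), Ankrd2 with Xirp1 (0.63) and Actc1 with Ankrd1 (0.51). Without the 2 libraries farthest out these were 0.65, 0.46 and 0.47.

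**Figure D5:**
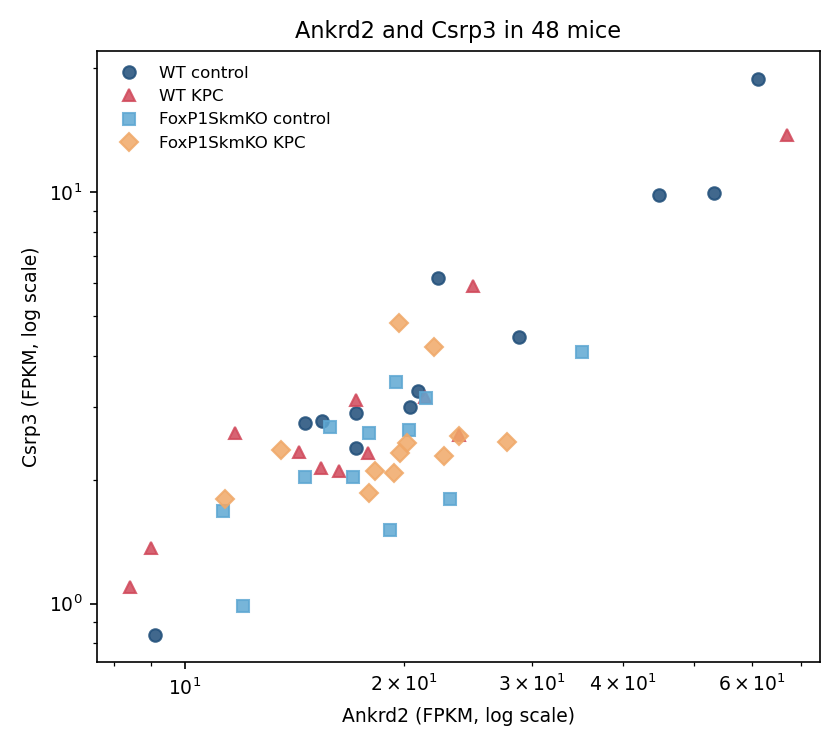
Csrp3 against Ankrd2 level in FPKM on log axes, with 1 point per mouse (48 mice) marked by genotype and condition. The points lie along a rising line, and the mice with the highest levels of both are WT.

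The genes whose deviations followed each member most closely differed between members, among 12631 genes compared over the 48 libraries. After Csrp3, Ankrd2 was followed by Hspb7 (r = 0.90), a small heat shock protein of muscle, Dcaf13 (0.78), Mustn1 (0.72) and Fhl1 (0.69), and Hspb7 (0.80), Rpl14 (0.69), Fhl1 (0.68) and Myoz2 (0.66), a Z-disc protein of slow fibers, followed Csrp3 after Ankrd2. For Xirp1 the closest were Flnc (0.85), the muscle filamin, and Tnfrsf12a (0.84), the TWEAK receptor, then Ehd4, Mfhas1 and Usp28 (0.80 each). For Ankrd1 they were Pdlim3 (0.85), a Z-disc LIM protein, Dennd2c (0.82), Usp28 (0.81), Ccdc141 (0.81) and Rbbp4 (0.78). For Actc1 they were Itm2a (0.84), Fbxl22 (0.80), B230312C02Rik (0.79), Acta1 (0.76) and Itgb1bp2 (0.75), known as melusin. Xirp2 was followed by Apoo (0.80), Eif4e (0.79), ENSMUSG00000120990 (0.79), Rnf11 (0.77) and Ppp2r3a (0.76). The developmental myosins had looser neighbors, led by Cbx8 (0.67), Tpm3 (0.66), Scarb2 (0.66), Gm44698 (0.66) and Il10ra (0.64) for Myh3 and by 3110040N11Rik (0.66), Esr1 (0.64), Kat5 (0.60), Pitx1 (0.59) and 6430571L13Rik (0.58) for Myh8.

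The libraries with the highest Ankrd1 differed in their level of Chrna1, the acetylcholine receptor subunit that denervated fibers raise. In FoxP1SkmKO mice its 4 highest levels were in KPC CT30 replicate 2 (9.80 FPKM), control CT38 replicate 2 (6.75), KPC CT26 replicate 2 (5.62) and control CT18 replicate 2 (5.002). The same 4 libraries had the 4 highest levels of Chrna1 of all 48 libraries: 19.3, 14.1, 7.92 and 8.33 FPKM in that order, where the group medians lay between 2.47 and 3.48. By contrast, the WT mouse with the highest Ankrd1 (KPC CT26 replicate 1, 5.50 FPKM) had 3.62 FPKM of Chrna1 and was the mouse with the highest Ankrd2 and Xirp1. Over all 48 libraries, Ankrd1 correlated with Chrna1 after the group means were removed (r = 0.78, rho = 0.57, 0.67 without the 2 libraries farthest out). Tnnt2, Myog and Myh7, looked at beside Chrna1, gave r = 0.64, 0.42 and 0.17 with Ankrd1 (0.47, 0.17 and -0.09 without 2). Chrna1 also correlated with Xirp1 (r = 0.59), and with the remaining members between -0.35 (Xirp2) and 0.48 (Myh3). These genes were looked at here after the values of these libraries were seen. The 4 FoxP1SkmKO libraries highest for Ankrd1, in the order above, ranked 2, 3, 7 and 4 of 48 by lowest median correlation. These correlations, with the other libraries, were 0.978, 0.979, 0.982 and 0.980. Only the first library is 1 of the 2 that stand apart.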

How the data were processed

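Messenger RNA of 48 TA muscles was sequenced as paired reads. The authors deposited raw read counts per gene, mapped to mm39, in 12 tables of 4 libraries each, and FPKM values per gene, which are the counts divided by gene length and library scaling, in 1 table of all libraries. The submitters' processing notes name HISAT2 2.0.5 and DESeq2 1.20.0, whereas the study's methods name another aligner, and this was not settled. The protocol text names both directional and non-directional libraries. The authors' normalized values, fold changes and p-values in the same tables were not used, and 0 columns belonged to other series. Genes with 1 read or none over the 4 libraries of a count table are absent from it, and 367 to 1064 single reads per library were restored from the FPKM table. Total counts were 14480867 to 20787784.

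The members and lists were chosen with earlier results of these data known. The counts of all 48 libraries were fitted together (edgeR 4.0.16, filterByExpr, TMM, quasi-likelihood test, 24 group coefficients, 24 residual degrees of freedom), and p-values were adjusted by Benjamini-Hochberg over 15637 genes and called under 0.05. They weigh a difference against the spread between the mice of a group. Sinusoids were fitted to FPKM within each genotype and condition and called at an unadjusted p under 0.01. limma 3.58.1 and DESeq2 1.42.0 (R 4.3.3) served as alternatives, as did leaving out libraries or times, no filter and a replicate block. Correlations used log2 CPM after the group means were removed, except those within 1 genotype and condition, which kept the differences between times. All members were named, with the targeted gene, the called genes of each list with the largest changes (for genotype in control mice, every called gene was named after its values were seen), and the 5 genes most correlated with each member. Scripts were tested on simulated data.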

Additional observations from a re-analysis of the deposited data

How the results depend on the processing

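The call of Actc1 in the WT tumor comparison was kept in all 48 fits that left out 1 library (1 to 1 member called, adjusted p 0.00232 to 0.0421), in DESeq2 and in limma, and was lost only without CT22 (0 members called). The number of called members stayed at 0 to 0 with 1 library left out for the tumor in FoxP1SkmKO mice, for the difference between genotypes and for genotype in KPC mice. For genotype in control mice it was 0 to 1 of 8, and 0 without CT22, CT26, CT30 or CT38, in limma with a pseudocount of 1 or 0.1, and without the 2 libraries that stand apart, a choice made after seeing the data. With 1 library left out, calls ranged from 0 to 2 at single times, 3 to 8 for time of day, 0 to 2 for the tumor's effect by time and 0 to 1 for the 24 h rhythm. Single-time calls numbered 6 with DESeq2 on the 4 libraries of each comparison and 0 without the 2 libraries that stand apart. Time-of-day calls numbered 2 and 1 in limma with a pseudocount of 1 and 0.1, and DESeq2 on all libraries called 1 pair (Xirp1 in WT mice) for the tumor's effect by time. Without a filter on low counts, 4, 1, 3, 3 and 3 members were called in the 5 averaged comparisons in the order of tumor in WT, tumor in FoxP1SkmKO, their difference, genotype in control and genotype in KPC mice, with 31 at single times, 27 for time of day and 9 for the effect by time. That fit gave infinite prior degrees of freedom to all 33218 genes, so every gene was tested with the spread of the trend alone. Signs were compared only for the averaged comparisons of Actc1 and Csrp3 and for Xirp1 at CT26 in WT mice. Among these the only reversal was Actc1 between genotypes in control mice, at -0.059 without FoxP1SkmKO control CT34 replicate 2. Fits without 1 library ranged from -0.059 to 0.49 there, and the cause was not tested. Replicate numbers do not pair the mice: same-numbered libraries of 276 pairs of groups correlated between -0.291 and 0.349, and 0 of 12 KPC and control pairs exceeded 0.1. With the replicate number as a block, the rhythm count was 1 (Xirp1 in FoxP1SkmKO control mice), the time-of-day call of Xirp2 had an adjusted p of 0.0524, and no other member call changed. Over all genes, the tumor called 280 in WT mice, 138, 118 and 157 without CT26, CT30 or CT34, 133 and 150 in limma with a pseudocount of 1 and 0.1, 159 without the 2 libraries that stand apart, 794 without a filter and 75 to 412 with 1 library left out. In FoxP1SkmKO mice it called 67, and 3, 130, 15, 107 and 21 without CT18, CT22, CT30, CT34 or CT38, 20 and 24 in limma, 31 without the 2 libraries, 14 when fitted alone, 137 with DESeq2, 527 without a filter and 17 to 228 with 1 library left out. For the difference between genotypes, 0 genes became 104 without a filter and 0 to 4 with 1 library left out. Genotype in control mice called 538, and 323 and 268 without CT18 or CT38, 933 without a filter and 303 to 760 with 1 library left out. In KPC mice it called 50, and 20, 138, 0, 27 and 21 without CT18, CT22, CT30, CT34 or CT38, 27 and 28 in limma, 21 without the 2 libraries, 101 with DESeq2, 470 without a filter and 17 to 198 with 1 library left out. Without the 2 libraries, calls fell from 1121 to 91 at CT26 in WT mice, from 2928 to 1175 for time of day in WT control mice and from 138 to 0 for the effect by time in WT mice. At 30 to 156 reads a library, counting error limits Myh3 most.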
